A study of Ovis aries with 20 samples.

Results

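The pancreas of wild-type (WT) sheep fetuses at 100 and 120 days of gestation was compared with that of younger WT fetuses at 65 and 80 days. The comparison takes the 8 WT libraries of these ages among the 20 libraries of the series, pooling 65 and 80 days as early (4 libraries) and 100 and 120 days as later (4 libraries), and covers 17425 of 24478 genes, those counted deeply enough to test. Each age is represented by 2 animals. The study sequenced bulk RNA of tissue from the middle of the pancreas of WT sheep and of CFTR−/− sheep, which lack the epithelial chloride and bicarbonate channel that is lost in cystic fibrosis, at these ages and at term. WT fetuses were bred, whereas CFTR−/− fetuses were clones made by nuclear transfer from 1 male fibroblast line edited in CFTR, so genotype and cloning cannot be told apart. The animal labels of an age share a stem, so both fetuses of an age could be littermates, and WT animal 1 at 65 days carries the same animal label as CFTR−/− animal 2 at 100 days. The p-values below therefore measure the spread between these samples.

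The exocrine pancreas is built from acinar cells, which make digestive enzymes as inactive precursors and store them in zymogen granules, and from ducts that carry the juice to the gut. Hormone cells arise from the same epithelium through a transient burst of the transcription factor NEUROG3 and gather into islets. In fetal life the epithelium first expands by division and branching within a mesenchyme, and acinar cells then fill with secretory protein.

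Total counts ranged from 58758258 to 64397668 in the 8 libraries, and a single read count equalled 0.0122 to 0.0213 CPM. CPM are counts scaled to library size and, by the TMM method, to library composition. Values are listed in the order 65 days animal 1, 65 days animal 2, 80 days animal 1 and 80 days animal 2 for the early libraries, and 100 days animal 1 to 120 days animal 2 in the same order for the later ones. All 13 defining markers of acinar, endocrine and duct cells that the table holds were above 0 in every library. One library stood apart, animal 2 at 120 days: its score on the first principal component of the 8 libraries (41.78% of the variance) was 150.9, against -66.51 to 27.6 in the other 7, and its log2 CPM correlated at 0.837 with animal 1 of the same age (Pearson, across genes, which are not independent), the lowest value among pairs of a stage. Animal 1 at 100 days stood apart on the second component (20.75% of the variance), with a score of 99.0 against -59.2 to 17.4. List medians that animal 2 at 120 days moved by over 1.5 times are given with and without it. No 2 libraries were as close as sampling noise alone would make them.

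In the later stage 4 genes rose and 0 fell, with the adjusted p no higher than 0.01 and a log2 fold change of 0.58 or more in size (0.023% of the 17425 genes tested; edgeR's quasi-likelihood F-test, Benjamini-Hochberg adjustment, 4 libraries against 4). They are the trypsinogen gene PRSS1, its neighbour LOC101112049, the tight junction gene CLDN18 and the mitochondrial enzyme gene BCAT2. At an adjusted p of at most 0.05 the number was 17 (0.0976%), of which 15 were higher and 2 lower later. Among the 15 were 3 digestive enzyme genes, and the 2 lower ones were the transcription factor gene ETV4 and NKAIN1. In bulk tissue, fewer cells of a type and less RNA per cell cannot be told apart. At an unadjusted p of at most 0.01 with the same fold change, 332 genes were higher (1.91%) and 156 lower (0.895%). Every count at that unadjusted p below, in lists as well, requires this fold change too. All 4 later libraries lay above all 4 early ones for 721 genes (4.14%) and below for 712 (4.09%). Over all genes tested the median log2 fold change of later over early was 0.05, with 9635 positive and 7775 negative values (median 0.004 without animal 2 at 120 days).

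PRSS1 encodes cationic trypsinogen, the precursor of the protease that activates the other zymogens in the gut. It is annotated at 105189216 to 105193172 of chromosome 4 on the Oar_v4.0 assembly (locus LOC101111795). It measured 30.1, 40.8, 39.5 and 57.6 CPM in the early and 297, 221, 388 and 277 CPM in the later libraries (log2 fold change 2.82, SE 0.25, adjusted p = 0.00908). All later libraries were several times above every early one. LOC101112049, a protein-coding locus with no symbol, lies beside it at 105213945 to 105217613 of chromosome 4. It measured 22.5, 25.6, 25.3 and 37.5 CPM in the early and 189, 165, 291 and 177 CPM in the later libraries (log2 fold change 2.90, SE 0.24, adjusted p = 0.00908). Within each stage the order of the libraries was that of PRSS1, with animal 1 at 120 days highest and the early libraries well below the later ones. Reads of near-identical trypsinogen copies can be assigned to either locus, so the levels of these neighbours are uncertain and the pair may be fewer than 2 independent results. At term, outside the comparison, the 2 WT libraries measured 69130 and 2299 CPM for PRSS1 and 64730 and 2470 CPM for LOC101112049.

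CLDN18 encodes a claudin, a protein that seals the junctions between epithelial cells of stomach and lung. It is annotated at 249017793 to 249042725 of chromosome 1. It measured 15, 15.96, 19.9 and 20.6 CPM in the early and 89.5, 66.7, 95.6 and 55.7 CPM in the later libraries (log2 fold change 2.11, SE 0.20, adjusted p = 0.00958). The groups did not overlap, and the animals of an age differed more in the later than in the early stage. BCAT2 encodes the mitochondrial aminotransferase that takes the first step in breaking down branched-chain amino acids, at 54328519 to 54342025 of chromosome 14. It measured 32.7, 31.5, 33.8 and 31.3 CPM in the early and 75.5, 66.2, 80.0 and 67.4 CPM in the later libraries (log2 fold change 1.17, SE 0.11, adjusted p = 0.00958). Its early libraries were nearly level, and its later libraries all stood at more than the highest early value. At term CLDN18 measured 57.5 and 63.6 CPM and BCAT2 152 and 72.1 CPM.

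Each of the 4 calls ended in at least 6 of the 8 fits that left out 1 library. Without either animal of 65, 80 or 100 days, 0 genes were called, and the adjusted p of the 4 genes lay between 0.0105 and 0.0824. Without animal 1 at 120 days 3 genes were called, LOC101112049 (0.0055), PRSS1 (0.00851) and CPB1 (0.0055, each an adjusted p), whereas CLDN18 and BCAT2 stood at 0.0191 and 0.0191. Without animal 2 at 120 days LOC101112049 and CLDN18 were called (adjusted p = 0.00972 for both), and PRSS1 and BCAT2 were at 0.0122. The size of the difference hardly moved: over these 8 fits the log2 fold change lay between 2.66 and 3.01 for PRSS1, 2.67 and 3.07 for LOC101112049, 1.98 and 2.23 for CLDN18, and 1.104 and 1.198 for BCAT2. Upper-quartile normalization gave 0 calls.

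**Figure D1:**
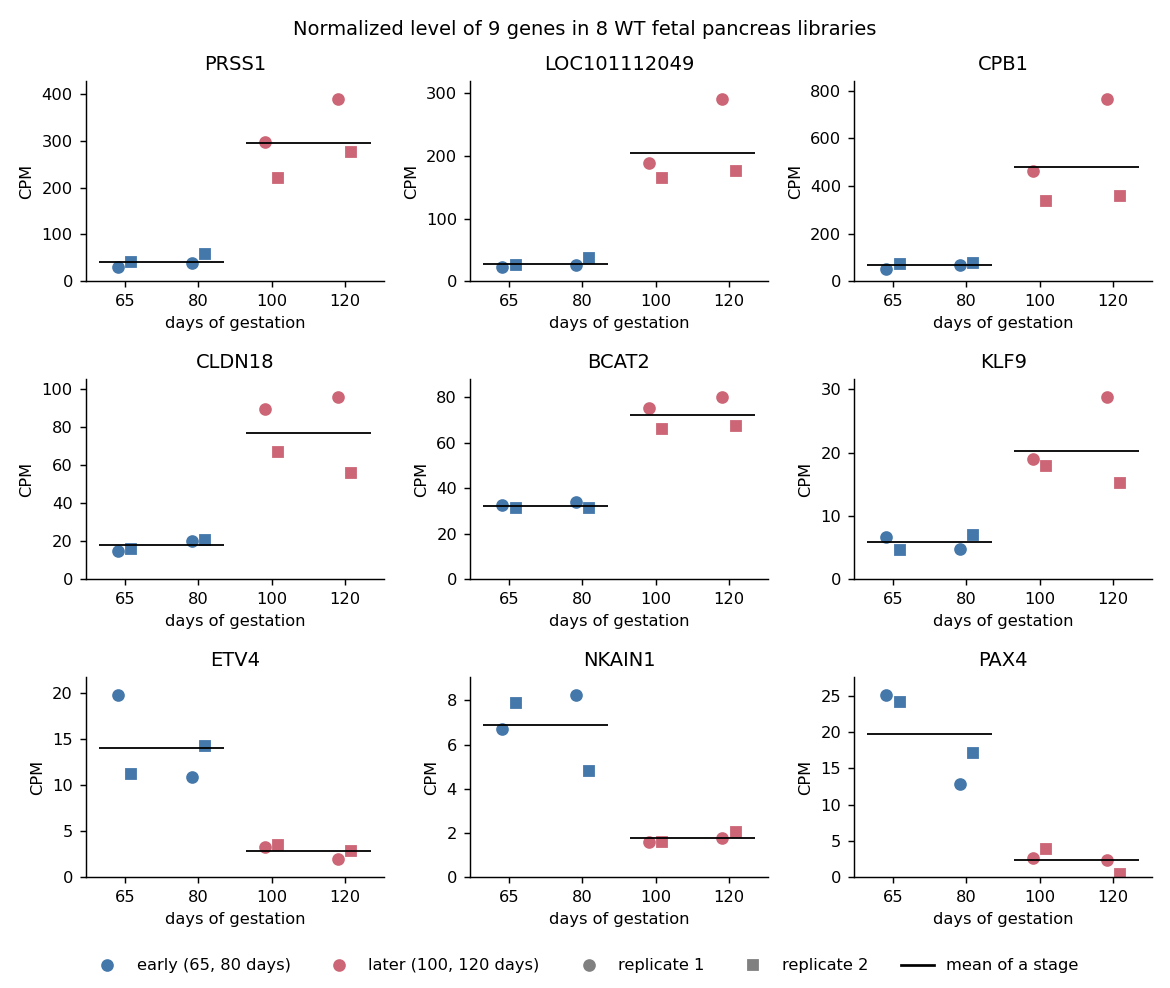
CPM (linear axis from 0) against days of gestation for 9 genes in the 8 WT libraries, with blue for early and red for later libraries, circles for animal 1 (replicate 1), squares for animal 2 (replicate 2) and a line at the mean of each stage. For all 9 genes, PRSS1, LOC101112049, CPB1, CLDN18, BCAT2, KLF9, ETV4, NKAIN1 and PAX4, the 4 later points lie on one side of the 4 early points.

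The other genes at an adjusted p of at most 0.05 were chosen after their values were seen. So were the genes named below for their list, unless they are its most abundant member, CFTR or described below as named by the study. Some genes chosen after their values were seen, such as PRSS2 and CEL, also appear in the paper. CPB1, the precursor of carboxypeptidase B, measured 50.2, 72.9, 67.3 and 76.0 CPM in the early and 464, 337, 764 and 358 CPM in the later libraries (log2 fold change 2.86, SE 0.29, adjusted p = 0.0111). PRSS2, anionic trypsinogen, is annotated on the same chromosome as PRSS1, at 105499348 to 105504142 of chromosome 4, and measured 1157, 1092, 1670 and 1528 CPM in the early and 6993, 4708, 5314 and 8353 CPM in the later libraries (log2 fold change 2.23, SE 0.28, adjusted p = 0.0379). Both were higher in every later library than in any early one. SYCN encodes syncollin, a protein of the zymogen granule membrane, and measured 120.4, 143, 102 and 80.9 CPM in the early and 793, 367, 444 and 445 CPM in the later libraries (log2 fold change 2.21, SE 0.29, adjusted p = 0.0379). The locus LOC101116336, named CES1 by the gene tables, is a carboxylesterase gene and measured 14.2, 6.24, 8.997 and 16.4 CPM in the early and 182, 76.0, 100.1 and 133 CPM in the later libraries (log2 fold change 3.43, SE 0.38, adjusted p = 0.0157). For these 2 genes too the stages did not overlap, and animal 1 at 100 days was the highest. Carboxylesterase genes form a family of close copies, so this assignment is uncertain too.

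KLF9, a Krüppel-like transcription factor gene induced by glucocorticoid and thyroid hormone, measured 6.74, 4.65, 4.86 and 7.04 CPM in the early and 19.1, 17.9, 28.8 and 15.2 CPM in the later libraries (log2 fold change 1.80, SE 0.25, adjusted p = 0.0417). SCLY encodes selenocysteine lyase, which recovers selenium from selenocysteine, and measured 14.3, 17.1, 18.5 and 16.9 CPM in the early and 35.3, 28.5, 32.4 and 33.6 CPM in the later libraries (log2 fold change 0.97, SE 0.13, adjusted p = 0.0417). CRIP3, a gene of a cysteine-rich LIM domain protein, measured 14.6, 15.9, 17.4 and 18.1 CPM in the early and 57.1, 37.0, 54.1 and 47.2 CPM in the later libraries (log2 fold change 1.57, SE 0.16, adjusted p = 0.0111). Each was higher in all later libraries, and animal 1 at 120 days was the highest for KLF9 but not for SCLY or CRIP3. C26H8orf4 was at 43.8, 46.1, 53.0 and 50.1 CPM early and 90.3, 81.5, 85.0 and 91.8 CPM later (log2 fold change 0.86, SE 0.11, adjusted p = 0.0413). The noncoding RNA locus LOC105607350 went from 0.552, 0.288, 0.565 and 0.220 CPM to 8.71, 4.45, 5.80 and 8.37 CPM (log2 fold change 4.07, SE 0.44, adjusted p = 0.0138), the largest fold among the 17. The unnamed loci LOC106991139 (log2 fold change 2.08, adjusted p = 0.0379) and LOC105606624 (1.81, adjusted p = 0.0417) complete the higher set.

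ETV4, an ETS transcription factor gene that acts downstream of FGF signals in branching epithelia, was lower later. It measured 19.8, 11.2, 10.9 and 14.2 CPM in the early and 3.30, 3.47, 1.97 and 2.85 CPM in the later libraries (log2 fold change -2.27, SE 0.28, adjusted p = 0.0307). NKAIN1, whose protein interacts with the sodium pump, measured 6.71, 7.90, 8.24 and 4.79 CPM in the early and 1.58, 1.61, 1.77 and 2.07 CPM in the later libraries (log2 fold change -1.97, SE 0.27, adjusted p = 0.0417). Neither gene overlapped between stages, and both were low in each later animal. The next genes with a symbol in order of p among those lower later, SEPT3, PAX4, AGTR2, GAREM2, MEST, SEZ6, PCBP4 and DBN1, did not pass an adjusted p of 0.05, and PAX4 and MEST are described with their lists below. AGTR2, the type 2 receptor of angiotensin II, measured 6.89, 8.09, 7.08 and 9.25 CPM in the early and 3.15, 3.36, 2.47 and 1.72 CPM in the later libraries (log2 fold change -1.54, SE 0.27, adjusted p = 0.0976). SEPT3 (-1.67), SEZ6 (-1.14), GAREM2 (-2.02), DBN1 (-0.91) and PCBP4 (-0.75, each a log2 fold change) had adjusted p between 0.0976 and 0.102. For each of these 5 genes the 4 later libraries were below the 4 early ones.

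Digestive enzyme genes were the list with the highest median. Of 19 loci tested, 18 were higher and 1 lower later, 16 lay above every early library in all 4 later ones, and 15 passed an unadjusted p of 0.01. The median log2 fold change was 1.64, and 1.72 without animal 2 at 120 days. Together these loci took 7.96%, 7.26%, 8.89% and 11.8% of the counts of the early libraries and 29.4%, 24.3%, 30.8% and 24.1% of the later ones. In the later fetuses a large part of the RNA counted came from these few genes. The largest part was LOC101117443, which the gene tables name CTRB1, a chymotrypsinogen gene at 1938235 to 1944246 of chromosome 14. It measured 38560, 40320, 44930 and 61870 CPM in the early and 312200, 174300, 208400 and 202600 CPM in the later libraries, a difference that did not pass (log2 fold change 2.28, SE 0.47, adjusted p = 0.125). Alone it took 5.08%, 4.82%, 5.55% and 8.22% of the counts early and 23.4%, 18.5%, 22.8% and 18.983% later. A neighbouring chymotrypsinogen locus, LOC101116249, at 1923254 to 1927690 of chromosome 14, is also named CTRB1. It measured 18.0, 14.7, 28.7 and 53.1 CPM in the early and 235, 202, 137 and 112 CPM in the later libraries (log2 fold change 2.59, SE 0.43, adjusted p = 0.0963), and reads may be split between the copies.

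Another 3 enzyme genes were higher later without passing the threshold. CPA1, procarboxypeptidase A1 (LOC101117326), measured 8354, 8186, 8341 and 7135 CPM in the early and 22040, 15610, 25890 and 15230 CPM in the later libraries (log2 fold change 1.31, SE 0.29, adjusted p = 0.146). CEL, the bile salt-dependent lipase, measured 4095, 3040, 5966 and 6074 CPM in the early and 12000, 11320, 16220 and 12020 CPM in the later libraries (log2 fold change 1.43, SE 0.31, adjusted p = 0.138). PLA2G1B, the secreted pancreatic phospholipase A2, measured 183, 248, 476 and 327 CPM in the early and 1363, 925, 959 and 1731 CPM in the later libraries (log2 fold change 2.02, SE 0.34, adjusted p = 0.0976). In none of the 3 did the stages overlap. Without animal 2 at 120 days 16 loci of the list had an unadjusted p of at most 0.01.

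Genes of the zymogen granule and of acinar identity were also higher, by less. All 18 loci tested were higher later, 6 did not overlap and 7 had an unadjusted p of at most 0.01 (median log2 fold change 0.78, and 0.97 without animal 2 at 120 days). Only SYCN passed an adjusted p of 0.05. GP2, the main glycoprotein of the granule membrane and the most abundant member, measured 1814, 2187, 3458 and 3650 CPM in the early and 4448, 5638, 6718 and 2638 CPM in the later libraries (log2 fold change 0.81, SE 0.35, adjusted p = 0.461). Its stages overlapped, because animal 2 at 120 days was below both 80-day animals. PDIA2, a protein disulfide isomerase largely restricted to the pancreas, measured 431, 474, 685 and 1122 CPM in the early and 5413, 2857, 3341 and 3601 CPM in the later libraries (log2 fold change 2.50, SE 0.37, adjusted p = 0.0619). ZG16, a lectin of the granule, measured 2.75, 4.38, 2.58 and 6.11 CPM in the early and 16.1, 10.3, 34.6 and 38.9 CPM in the later libraries (log2 fold change 2.67, SE 0.47, adjusted p = 0.101). AQP8, a water channel of acinar cells, measured 289.8, 262, 479.6 and 458 CPM in the early and 887, 706, 844 and 695 CPM in the later libraries (log2 fold change 1.08, SE 0.24, adjusted p = 0.142). For PDIA2, ZG16 and AQP8 all later libraries were above all early ones. The list took 0.562%, 0.561%, 0.827% and 0.984% of the counts early and 1.16%, 1.34%, 1.595% and 0.873% later. PTF1A and BHLHA15, transcription factors of acinar cells, were not analysed here.

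**Figure D2:**
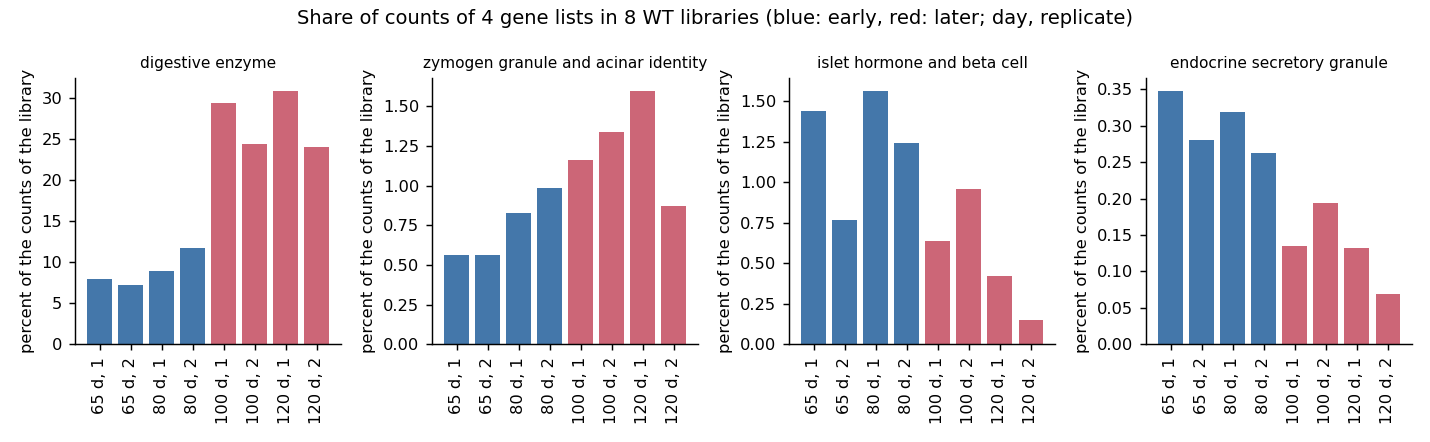
Percent of the raw counts of each of the 8 WT libraries (bars from 0, blue early, red later, labelled by day and animal) that came from 4 gene lists. Digestive enzyme genes took a larger share in every later library than in any early one, while the islet hormone and endocrine granule lists took smaller shares in the later libraries than in most early ones.

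Most genes of the machinery that moves and folds secretory protein were higher later, with small differences. Of 32 genes of the unfolded protein response, 29 were higher, 9 did not overlap and 8 had an unadjusted p of at most 0.01 (median log2 fold change 0.40, 0.55 without animal 2 at 120 days). None passed the adjusted threshold. SYVN1, a ubiquitin ligase that removes misfolded protein from the endoplasmic reticulum, measured 55.2, 41.4, 56.7 and 61.9 CPM in the early and 102, 99.5, 105 and 74.3 CPM in the later libraries (log2 fold change 0.83, SE 0.17, adjusted p = 0.121). ATF6, a stress-sensing transcription factor of the same membrane, measured 23.7, 24.4, 24.0 and 26.7 CPM in the early and 40.3, 36.4, 52.4 and 32.2 CPM in the later libraries (log2 fold change 0.72, SE 0.16, adjusted p = 0.143). DNAJC3, a co-chaperone, measured 64.2, 74.0, 63.1 and 73.7 CPM in the early and 123, 119, 155 and 81.5 CPM in the later libraries (log2 fold change 0.81, SE 0.19, adjusted p = 0.167). The stages did not overlap for these 3 genes. DERL3, a retrotranslocation protein, measured 4.53, 4.41, 5.44 and 6.99 CPM in the early and 24.1, 6.23, 27.1 and 33.9 CPM in the later libraries (log2 fold change 2.10, SE 0.45, adjusted p = 0.132), with animal 2 at 100 days within the early range. Among the main chaperones, HSP90B1, the most abundant member, had a log2 fold change of 0.16 (SE 0.25) and HSPA5 of 0.33 (SE 0.23).

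HSPA5, HERPUD1, DNAJC3, ATF6 and CREB3L3 are genes the study names for stress of the endoplasmic reticulum from its own comparisons in this series. Only HERPUD1 came from a comparison within these 8 libraries, and the others came from 120 days against term. HSPA5 measured 836, 925, 728 and 685 CPM in the early and 1283, 1172, 817 and 697 CPM in the later libraries (log2 fold change 0.33, SE 0.23, adjusted p = 0.666). Both animals at 100 days were above the early ones, and those at 120 days were within the early range. HERPUD1 measured 108, 111, 81.1 and 85.0 CPM in the early and 271, 218, 141 and 117 CPM in the later libraries (log2 fold change 0.96, SE 0.27, adjusted p = 0.235), again highest at 100 days, with stages that did not overlap. CREB3L3 measured 6.59, 6.39, 8.21 and 17.9 CPM in the early and 22.0, 10.95, 8.73 and 9.06 CPM in the later libraries (log2 fold change 0.38, SE 0.42, adjusted p = 0.804), and its stages overlapped.

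Of 39 genes for translocation into the endoplasmic reticulum and for transport to the Golgi, 35 were higher, 6 did not overlap and 3 had an unadjusted p of at most 0.01 (median log2 fold change 0.34). SEC61A1, the pore of the translocon, measured 325, 288, 354 and 362 CPM in the early and 670.2, 506, 564 and 451 CPM in the later libraries (log2 fold change 0.73, SE 0.17, adjusted p = 0.167). SEC11C, a catalytic subunit of signal peptidase, measured 68.5, 66.7, 65.8 and 58.9 CPM in the early and 186, 93.9, 94.0 and 111 CPM in the later libraries (log2 fold change 0.91, SE 0.23, adjusted p = 0.192). The most abundant member, SSR4, part of the translocon-associated complex, measured 486, 746, 584 and 501 CPM in the early and 1249, 758, 756 and 636 CPM in the later libraries (log2 fold change 0.56, SE 0.25, adjusted p = 0.472). Animal 1 at 100 days was the highest library for all 3 genes, and the stages of SSR4 overlapped.

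Sterol and fatty acid synthesis genes were higher as a list: all 19 were higher later, 7 did not overlap and 5 had an unadjusted p of at most 0.01 (median log2 fold change 0.68). None passed the adjusted threshold. FDFT1, squalene synthase, measured 30.5, 30.9, 34.97 and 37.4 CPM in the early and 63.1, 58.3, 73.1 and 50.3 CPM in the later libraries (log2 fold change 0.88, SE 0.14, adjusted p = 0.0933). INSIG1, the sterol-sensing brake on this pathway, measured 17.1, 19.4, 14.3 and 21.2 CPM in the early and 40.6, 31.9, 58.6 and 32.2 CPM in the later libraries (log2 fold change 1.19, SE 0.22, adjusted p = 0.102). Animal 1 at 120 days was the highest for both, and the stages did not overlap. SREBF2, the transcription factor that drives it, measured 95.8, 94.2, 103 and 108 CPM in the early and 142, 149, 217 and 141 CPM in the later libraries (log2 fold change 0.70, SE 0.16, adjusted p = 0.168). SQLE, squalene epoxidase, measured 27.3, 31.1, 25.1 and 25.6 CPM in the early and 44.5, 35.4, 46.7 and 37.6 CPM in the later libraries (log2 fold change 0.60, SE 0.13, adjusted p = 0.146). For SREBF2 and SQLE too each later library was above each early one. FASN, fatty acid synthase, which the study names, measured 29.6, 28.6, 35.5 and 41.0 CPM in the early and 34.5, 40.0, 77.3 and 147 CPM in the later libraries (log2 fold change 1.16, SE 0.43, adjusted p = 0.371) and was high in the 120-day animals only. Without animal 2 at 120 days 17 of the 19 were higher and the median was 0.59.

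Duct and epithelial genes did not differ as 1 group. Of 24 tested, 15 were higher and 9 lower, with 3 wholly above and 1 wholly below the early libraries (median log2 fold change 0.28, 0.43 without animal 2 at 120 days). TFF2, a trefoil peptide of mucous secretions and the most abundant member, measured 217, 327, 484 and 436 CPM in the early and 878, 831, 700.4 and 909 CPM in the later libraries (log2 fold change 1.19, SE 0.25, adjusted p = 0.133). MUC1, a transmembrane mucin, measured 28.3, 19.4, 27.8 and 35.1 CPM in the early and 74.7, 56.2, 95.1 and 48.0 CPM in the later libraries (log2 fold change 1.31, SE 0.25, adjusted p = 0.102). SPP1, the secreted phosphoprotein osteopontin, measured 107, 176, 94.1 and 83.9 CPM in the early and 54.9, 28.8, 15.3 and 46.2 CPM in the later libraries (log2 fold change -1.66, SE 0.40, adjusted p = 0.177). TFF2 and MUC1 were higher in every later library, and SPP1 lower in every one. CFTR measured 30.3, 34.6, 27.7 and 30.2 CPM in the early and 20.4, 27.8, 24.2 and 13.7 CPM in the later libraries (log2 fold change -0.51, SE 0.21, adjusted p = 0.424). Its stages overlapped through animal 2 at 100 days, which was level with animal 1 at 80 days.

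Transcription factors of the progenitor epithelium showed little difference, with 8 of 20 higher and a median of -0.08, which became 0.09 without animal 2 at 120 days. SOX9, the most abundant member, which marks progenitors and later ducts, measured 92.8, 81.5, 82.7 and 88.2 CPM in the early and 92.2, 105, 96.0 and 43.2 CPM in the later libraries (log2 fold change -0.03, SE 0.24, adjusted p = 0.974). Animal 2 at 120 days was the lowest, and the other 7 libraries overlapped.

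Endocrine genes went the other way. All 18 of 18 transcription factors of the endocrine lineage were lower later, 5 without overlap and 2 at an unadjusted p of at most 0.01 (median log2 fold change -0.83). PAX4, which steers precursors towards beta cells, measured 25.1, 24.1, 12.8 and 17.1 CPM in the early and 2.64, 3.84, 2.35 and 0.508 CPM in the later libraries (log2 fold change -3.08, SE 0.53, adjusted p = 0.0976). NEUROG3, which starts the endocrine programme, measured 9.97, 13.4, 4.96 and 4.90 CPM in the early and 0.575, 1.75, 1.02 and 0 CPM in the later libraries (log2 fold change -3.30, SE 0.98, adjusted p = 0.271). Both were lower in each later library than in any early one, and animal 2 at 120 days was lowest, with 0 counts of NEUROG3. Without animal 2 at 120 days 16 of the 18 were lower and the median was -0.57, and PAX4 had a log2 fold change of -2.75 (adjusted p = 0.0174; range over the fits without 1 library 0.0174 to 0.374).

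Genes of endocrine secretory granules were lower in 13 of 15 cases, 4 without overlap (median log2 fold change -0.68, -0.59 without animal 2 at 120 days). VGF, a granule peptide precursor, measured 12.1, 9.99, 11.7 and 10.3 CPM in the early and 5.41, 7.001, 5.88 and 6.37 CPM in the later libraries (log2 fold change -0.83, SE 0.17, adjusted p = 0.125). CHGA, chromogranin A, the most abundant, measured 932, 774, 863 and 483 CPM in the early and 571, 503, 277 and 175 CPM in the later libraries (log2 fold change -0.996, SE 0.38, adjusted p = 0.383). The stages of VGF did not overlap, and those of CHGA did, because animal 2 at 80 days was below both 100-day animals. Islet hormone and beta cell genes were lower in 11 of 16 cases (median -0.58, -0.32 without animal 2 at 120 days). GCG, the glucagon gene and the most abundant of them, measured 8712, 4081, 9748 and 7345 CPM in the early and 5326, 6360, 2662 and 825 CPM in the later libraries (log2 fold change -0.98, SE 0.57, adjusted p = 0.584). Its stages overlapped, and it was lowest in the 120-day animals. The hormone list took 1.44%, 0.767%, 1.56% and 1.24% of the counts early and 0.637%, 0.961%, 0.421% and 0.151% later, and the granule list 0.348%, 0.280%, 0.319% and 0.262% and 0.136%, 0.195%, 0.133% and 0.0693%. INS and PDX1 were not analysed here. A larger share of counts in enzyme genes lowers the share left for other genes. These shares are of raw counts and are not corrected for that, whereas CPM and log2 fold changes are scaled by TMM factors.

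Genes of dividing cells were lower by small amounts. Of 30 mitosis genes, 29 were lower later, 8 without overlap and 1 at an unadjusted p of at most 0.01 (median log2 fold change -0.37). Of 30 DNA replication genes, 23 were lower, 7 without overlap and 2 at an unadjusted p of at most 0.01 (median -0.27). TOP2A, the topoisomerase that untangles chromosomes, measured 70.3, 81.7, 65.5 and 53.0 CPM in the early and 41.7, 51.8, 51.8 and 39.8 CPM in the later libraries (log2 fold change -0.54, SE 0.16, adjusted p = 0.27). CCNA2, cyclin A2, measured 17.4, 25.4, 19.5 and 17.1 CPM in the early and 13.8, 14.97, 12.9 and 10 CPM in the later libraries (log2 fold change -0.62, SE 0.19, adjusted p = 0.279). TK1, a thymidine kinase of S phase, measured 3.78, 6.24, 5.18 and 3.75 CPM in the early and 1.81, 2.20, 2.52 and 1.51 CPM in the later libraries (log2 fold change -1.23, SE 0.30, adjusted p = 0.179). For these 3 genes the stages did not overlap and animal 2 at 65 days was the highest. MCM7, a subunit of the replicative helicase and the most abundant of its list, had a log2 fold change of -0.19 (SE 0.15, adjusted p = 0.703). Both medians stayed negative without animal 2 at 120 days, at -0.29 and -0.26.

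Imprinted genes, which are read from 1 parental copy and many of which regulate fetal growth, were lower in 12 of 18 cases, 3 without overlap (median log2 fold change -0.30). MEST measured 219.7, 325, 204 and 201 CPM in the early and 95.8, 127, 73.2 and 102 CPM in the later libraries (log2 fold change -1.25, SE 0.22, adjusted p = 0.099). GNAS, the gene of a G protein subunit (LOC101115640), the most abundant, measured 3503, 3007, 3698 and 3353 CPM in the early and 2355, 2979, 2196 and 1040 CPM in the later libraries (log2 fold change -0.66, SE 0.31, adjusted p = 0.486). H19 and MEG3 were not analysed here. Fetal growth and oncofetal genes were lower in 13 of 21 cases (median -0.11). IGFBP2, which binds insulin-like growth factors, measured 124, 117, 66.6 and 56.3 CPM in the early and 49.9, 32.4, 14.98 and 43.7 CPM in the later libraries (log2 fold change -1.36, SE 0.39, adjusted p = 0.256). DLK1, imprinted and the most abundant of this list, measured 972, 938, 636 and 602 CPM in the early and 597, 478, 453 and 648 CPM in the later libraries (log2 fold change -0.53, SE 0.22, adjusted p = 0.447). MEST and IGFBP2 were lower in each later library, and DLK1 overlapped. MDK and PTN, related growth factors of fetal mesenchyme that the study names, had log2 fold changes of -1.14 (SE 0.38, adjusted p = 0.326) and -0.81 (SE 0.28, adjusted p = 0.353). PDGFC (-0.02, SE 0.20, adjusted p = 0.985) and FGFR2 (-0.47, SE 0.24, adjusted p = 0.54), also named there, did not pass either. The study names MDK, PTN, PDGFC and FGFR2 as lower at term than at 120 days, a comparison outside these 8 libraries.

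For the matrix, the result depended on 1 library. With all 8 libraries 20 of 35 fibrillar collagen and matrix genes were lower later (median log2 fold change -0.10), 2 without overlap and 2 at an unadjusted p of at most 0.01. Without animal 2 at 120 days 27 were lower, 8 of them at that p (median -0.50), beside 343 genes lower and 445 higher at that p in the whole table. VCAN, the proteoglycan versican, measured 42.8, 57.5, 26.1 and 33.1 CPM in the early and 13.4, 13.1, 15.7 and 25.4 CPM in the later libraries (log2 fold change -1.23, SE 0.30, adjusted p = 0.178). COL12A1, a collagen that links fibrils, measured 61.0, 69.0, 49.6 and 60.2 CPM in the early and 21.2, 26.2, 32.9 and 41.8 CPM in the later libraries (log2 fold change -0.97, SE 0.21, adjusted p = 0.145). In both the later libraries were below the early ones, and animal 2 at 120 days was the highest of the later 4. COL3A1, the most abundant, measured 3446, 4108, 2146 and 2375 CPM in the early and 1820, 1776, 2310 and 4095 CPM in the later libraries (log2 fold change -0.26, SE 0.35, adjusted p = 0.844) and overlapped. Its log2 fold change was -0.08 without animal 2 at 65 days and -0.62 without animal 2 at 120 days. Basement membrane genes were higher in 11 of 16 cases (median 0.13, -0.02 without animal 2 at 120 days), with COL4A1 at a log2 fold change of 0.20 (SE 0.22). Signals of the pancreatic mesenchyme were lower in 15 of 25 cases, 5 without overlap (median -0.21). Their most abundant gene, SFRP1, a secreted WNT antagonist, measured 336, 374, 410.1 and 482 CPM in the early and 519, 623, 792 and 391 CPM in the later libraries (log2 fold change 0.54, SE 0.23, adjusted p = 0.442).

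Several lists of other cell types were higher later mainly through animal 2 at 120 days. Of 17 adipocyte genes 16 were higher (median log2 fold change 1.41), and 11 without that library (median 0.24). ADIPOQ, the fat cell hormone adiponectin, which the study names, measured 0.319, 0.118, 0.0276 and 0.0611 CPM in the early and 0.0426, 0.230, 12.5 and 175 CPM in the later libraries (log2 fold change 8.46, SE 2.34, adjusted p = 0.235). FABP4, a fatty acid carrier of fat cells, measured 0, 0, 0.344 and 0.147 CPM in the early and 0.0639, 0.215, 4.46 and 136 CPM in the later libraries (log2 fold change 8.19, SE 2.44, adjusted p = 0.27). Both were near 0 up to 100 days, and only the 120-day animals held more. Of the 4 defining adipocyte markers ADIPOQ was the most abundant, and LEP was at 0 in at least 1 library. Together they summed to 0.675, 0.601, 0.289 and 0.428 CPM early and 1.07, 0.875, 16.7 and 199.6 CPM later. LPL, lipoprotein lipase, measured 0.307, 0.445, 0.220 and 0.599 CPM in the early and 0.639, 1.54, 6.97 and 5.10 CPM in the later libraries (log2 fold change 3.19, SE 0.75, adjusted p = 0.171), with stages that did not overlap. GPD1, the most abundant gene of the list, was at a log2 fold change of -0.58 (SE 0.29), and at -0.99 (SE 0.15) without animal 2 at 120 days.

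All 19 lymphocyte genes were higher with 8 libraries (median log2 fold change 1.43), and 2 were without animal 2 at 120 days (median -1.57). Their most abundant gene, the cytokine LTB, measured 1.35, 5.75, 21.6 and 0.868 CPM in the early and 0.383, 1.09, 1.22 and 95.1 CPM in the later libraries (log2 fold change 1.74, SE 1.68, adjusted p = 0.77). The 4 defining markers were led by CD3E, and CD79A was at 0 in at least 1 library. Together they summed to 6.57, 9.05, 27.5 and 9.96 CPM early and 8.33, 6.63, 12.4 and 90.04 CPM later. Macrophage and neutrophil genes were higher in 17 of 18 cases (median 1.03), and in 3 without that library (median -0.53). C1QB, a complement subunit made by macrophages and the most abundant, measured 13.4, 17.3, 18.2 and 8.77 CPM in the early and 22.8, 9.49, 8.89 and 102 CPM in the later libraries (log2 fold change 1.33, SE 0.74, adjusted p = 0.573). S100A12, a neutrophil protein that the study names, measured 1.11, 1.19, 1.38 and 0.306 CPM in the early and 0.107, 0.0614, 0.369 and 48.0 CPM in the later libraries (log2 fold change 3.63, SE 1.84, adjusted p = 0.532). In each of these 3 genes 1 library made the later mean high, and the other later libraries were within, below or a little above the early range. The part of these cells in the other results was not tested.

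Erythroid genes were higher in all 16 cases (median log2 fold change 1.44), and in 6 without animal 2 at 120 days (median -0.22). HBA1, an alpha globin (LOC101108797), measured 639, 649, 440.2 and 310.0 CPM in the early and 492, 388, 416 and 3404 CPM in the later libraries (log2 fold change 1.22, SE 0.72, adjusted p = 0.589). HBB, a beta globin (LOC101105437), measured 5.74, 4.08, 7.56 and 2.75 CPM in the early and 19.5, 9.29, 93.4 and 616 CPM in the later libraries (log2 fold change 5.21, SE 1.28, adjusted p = 0.189). HBA1 was high in 1 library alone, whereas HBB was higher in all 4 later libraries. Globin copies are close in sequence, and the assignment between fetal and adult beta globins is uncertain. The 4 defining erythroid markers, led by HBA1 and none at 0, summed to 652, 659.7, 453 and 316 CPM early and 515, 401, 519 and 4064 CPM later. EPB42, a protein of the red cell membrane, measured 3.09, 3.33, 4.19 and 7.58 CPM in the early and 13.7, 9.80, 20.1 and 13.7 CPM in the later libraries (log2 fold change 1.66, SE 0.34, adjusted p = 0.125) and did not overlap.

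Antigen presentation and interferon genes were higher in all 24 cases (median log2 fold change 1.12), and in 14 without animal 2 at 120 days (median 0.09). A few interferon-induced genes did not depend on that library. RSAD2, the antiviral protein viperin, measured 0.196, 0.314, 0.427 and 0.208 CPM in the early and 3.07, 2.38, 1.601 and 2.09 CPM in the later libraries (log2 fold change 2.995, SE 0.44, adjusted p = 0.0619). OAS1, a sensor of double-stranded RNA, measured 2.68, 3.12, 4.93 and 1.82 CPM in the early and 17.9, 13.5, 6.07 and 13.4 CPM in the later libraries (log2 fold change 2.02, SE 0.40, adjusted p = 0.12). IFI44 measured 1.18, 0.980, 1.63 and 1.16 CPM in the early and 3.58, 3.90, 3.73 and 2.45 CPM in the later libraries (log2 fold change 1.47, SE 0.31, adjusted p = 0.131). For these 3 genes every later library was above every early one, and without animal 2 at 120 days the log2 fold changes were 3.03, 1.99 and 1.59. B2M, the light chain of class I molecules and the most abundant of the list, measured 72.3, 129, 109 and 63.2 CPM in the early and 95.2, 77.2, 73.2 and 381 CPM in the later libraries (log2 fold change 0.76, SE 0.55, adjusted p = 0.677) and was high in that animal alone.

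Stellate and smooth muscle genes were higher in 14 of 19 cases (median log2 fold change 0.57, 0.02 without animal 2 at 120 days). MYH11, the myosin of smooth muscle, measured 4.14, 3.46, 4.48 and 5.59 CPM in the early and 16.1, 6.99, 6.82 and 65.3 CPM in the later libraries (log2 fold change 2.44, SE 0.71, adjusted p = 0.261). RBP4, a carrier of retinol that is also made outside stellate cells, measured 137, 175, 154 and 169 CPM in the early and 99.2, 116, 64.4 and 45.1 CPM in the later libraries (log2 fold change -0.96, SE 0.27, adjusted p = 0.247). MYH11 was higher and RBP4 lower in each later library. VIM, the most abundant, had a log2 fold change of -0.48 (SE 0.33). It was -0.28 (SE 0.27) without animal 1 at 120 days and -0.86 (SE 0.25) without animal 2 of that age. Endothelial genes were higher in 15 of 18 cases (median 0.29, -0.01 without animal 2 at 120 days). ERG, an endothelial transcription factor, measured 4.87, 4.22, 5.48 and 7.04 CPM in the early and 10.3, 8.34, 14.6 and 17.5 CPM in the later libraries (log2 fold change 1.24, SE 0.28, adjusted p = 0.146), without overlap. PLVAP, the most abundant, had a log2 fold change of 0.57 (SE 0.19, adjusted p = 0.33). Lymphatic endothelial genes had a median of 0.44 with and -0.45 without that library (7 genes, the most abundant PROX1), and complement and acute phase genes 0.67 and -0.04 (14 genes, the most abundant CFI). C4A (LOC101123419), a complement gene that the study names and that has close copies, measured 7.19, 9.26, 7.90 and 10.2 CPM in the early and 7.84, 12.3, 42.1 and 44.4 CPM in the later libraries (log2 fold change 1.64, SE 0.52, adjusted p = 0.307).

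Schwann and glial genes had a median log2 fold change of 0.29 with and -0.12 without animal 2 at 120 days (15 genes, 10 and 5 higher). ERBB3, the most abundant, had a log2 fold change of 0.29 (SE 0.22). S100B, a calcium-binding protein of glia, measured 15.9, 15.9, 13.4 and 16.3 CPM in the early and 23.2, 23.1, 24.6 and 24.9 CPM in the later libraries (log2 fold change 0.65, SE 0.12, adjusted p = 0.102), with little spread within a stage. The paper's single-cell data list S100B as a marker of duct cells at 120 days. At 80 days they list it for cells resembling stellate or Schwann cells. The cells behind its level here were not tested. Neuronal genes were lower in 8 of 12 cases with all libraries (median -0.25) and in all 12 without animal 2 at 120 days (median -1.66), 7 of them at an unadjusted p of at most 0.01. CHAT, the enzyme that makes acetylcholine, measured 1.46, 1.77, 0.923 and 1.504 CPM in the early and 0.213, 0.246, 0.411 and 0.345 CPM in the later libraries (log2 fold change -2.20, SE 0.45, adjusted p = 0.125). ELAVL4, a neuronal RNA-binding protein, measured 13.4, 10.3, 10.2 and 11.9 CPM in the early and 7.11, 7.91, 6.53 and 6.12 CPM in the later libraries (log2 fold change -0.72, SE 0.17, adjusted p = 0.178). GAP43, a protein of growing axons and the most abundant, measured 46.5, 47.0, 29.2 and 26.3 CPM in the early and 19.4, 9.04, 6.79 and 57.5 CPM in the later libraries (log2 fold change -0.67, SE 0.61, adjusted p = 0.754). CHAT and ELAVL4 were lower in each later library, and GAP43 was lower in all but animal 2 at 120 days.

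**Figure D3:**
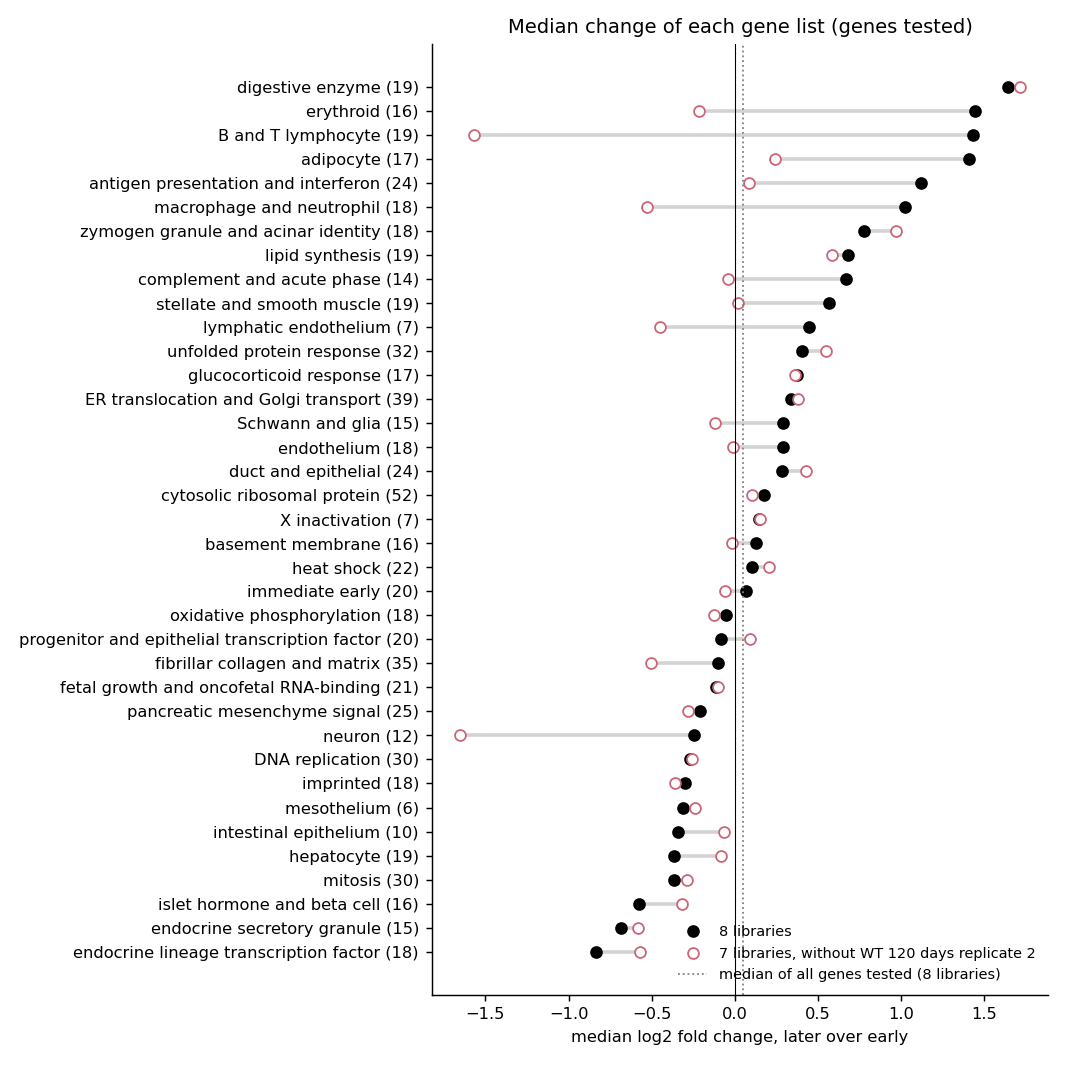
Median log2 fold change of later over early for 37 gene lists (number of genes tested in brackets), from all 8 WT libraries (black) and from 7 libraries without animal 2 at 120 days (open red), with the median of all genes tested as a dotted line. The digestive enzyme list lies furthest right in both, while the lymphocyte, macrophage and erythroid lists lie to the left of 0 without that animal.

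Markers of neighbouring organs were looked at because pieces of liver, gut or peritoneum can come with fetal pancreas. Hepatocyte genes were higher in 9 of 19 cases, 3 without overlap (median log2 fold change -0.36, -0.08 without animal 2 at 120 days). VTN, the adhesion protein vitronectin, measured 35.5, 34.1, 45.3 and 40.9 CPM in the early and 135, 90.4, 100.1 and 74.6 CPM in the later libraries (log2 fold change 1.37, SE 0.19, adjusted p = 0.0509). AMBP, a precursor of plasma proteins and the most abundant, measured 600.2, 482, 734 and 498 CPM in the early and 1636, 825, 853 and 792 CPM in the later libraries (log2 fold change 0.83, SE 0.28, adjusted p = 0.326). Both were higher in every later library. The defining liver markers ALB, APOA1 and AHSG together summed to 1088, 942, 387 and 368 CPM early and 669, 289, 246 and 356 CPM later, with none at 0. Intestinal genes were higher in 4 of 10 cases (median -0.34, -0.07 without that library). GIP, a hormone of the upper gut, measured 60.8, 215, 6.53 and 21.8 CPM in the early and 4.28, 0.461, 0.170 and 0 CPM in the later libraries (log2 fold change -6.00, SE 1.56, adjusted p = 0.209), and ANPEP, an aminopeptidase and the most abundant, measured 209, 152, 128 and 131 CPM in the early and 373, 272, 351 and 139.5 CPM in the later libraries (log2 fold change 0.88, SE 0.30, adjusted p = 0.338). GIP was lower in each later library but varied widely among early animals. The paper counts GIP among genes of hormone secretion in fetal pancreas, so it is not a marker of gut alone. The defining gut markers were led by VIL1, and FABP2 was at 0 in at least 1 library. Together they summed to 118, 109.9, 112 and 117 CPM early and 255, 112, 91.3 and 46.2 CPM later. Mesothelial genes (6 tested, the most abundant ALDH1A2) had a median of -0.31.

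Heat shock genes were higher in 19 of 22 cases with a median log2 fold change of 0.10 (0.21 without animal 2 at 120 days). HSPA1A, an inducible HSP70, measured 722, 580.3, 274 and 424 CPM in the early and 1143, 1738, 989 and 810.4 CPM in the later libraries (log2 fold change 1.23, SE 0.34, adjusted p = 0.235), without overlap. BAG3, DNAJB1 and HSPA6, which the study names, had log2 fold changes of 1.03 (SE 0.31, adjusted p = 0.281), 0.81 (SE 0.36, adjusted p = 0.464) and 1.16 (SE 0.78, adjusted p = 0.647). All 3 overlapped between stages. The study names them as higher at 100 than at 80 days, which differs from the pooled stages. Their log2 steps from 80 to 100 days were 1.56, 1.79 and 3.73. From 100 to 120 days the steps were -0.65, -1.03 and -1.45. HSP90AB1, the most abundant, was at -0.34 (SE 0.18). Immediate early genes had a median of 0.07 (-0.06 without animal 2 at 120 days; 20 genes, the most abundant MYC). Glucocorticoid response genes had a median of 0.38 (12 of 17 higher), with KLF9 the only one at an adjusted p of 0.05. MT2A, a metallothionein (LOC101117955) and the most abundant of them, measured 225, 139.6, 138 and 137 CPM in the early and 97.5, 66.3, 0.312 and 5.59 CPM in the later libraries (log2 fold change -1.91, SE 1.16, adjusted p = 0.598), lowest in the 120-day animals.

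Oxidative phosphorylation genes differed little as a list (median log2 fold change -0.05, 6 of 18 higher, the most abundant ATP5A1). With animal 2 at 120 days left out 2 were higher (median -0.13), and with all 8 libraries the median was 0.001 once the trend with gene length was removed. Cytosolic ribosomal protein genes were higher in 51 of 52 cases by a median of 0.17, with 0 free of overlap. With animal 2 at 120 days left out 43 were higher (median 0.10). RPLP1, the most abundant, measured 4160, 4450, 4930 and 4322 CPM in the early and 9993, 4933, 3796 and 7233 CPM in the later libraries (log2 fold change 0.55, SE 0.32, adjusted p = 0.588) and was highest in animal 1 at 100 days and animal 2 at 120 days. Genes linked to X inactivation (7 tested, the most abundant DDX3X) had a median of 0.15.

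The pooled comparison says little about when the genes began to differ, and the choice of stages favours the step from 80 to 100 days. Among the 17 genes at an adjusted p of at most 0.05 the median log2 step was 0.20 from 65 to 80 days, 1.87 from 80 to 100 days and 0.06 from 100 to 120 days, and all 17 had their largest step from 80 to 100 days. Of the 332 genes higher at an unadjusted p of at most 0.01, 275 had their largest step there, with medians of 0.20, 0.81 and 0.07. Of the 156 lower ones 118 did, with medians of -0.23, -0.74 and -0.24.

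CFTR−/− fetuses of the same ages share no library with the WT comparison and give the same contrast in a second set of 8 libraries. CFTR itself measured 44.5, 45.8, 30.6, 43.9, 19.8, 24.6, 12.2 and 27.6 CPM in them, in the same order of age and animal. There 0 of 17387 genes were called by edgeR (1752 at an unadjusted p under 0.05, and 47 called by the likelihood ratio test), with a smallest adjusted p of 0.362. All 17 WT genes had the same sign in CFTR−/− animals, against 65.0% among the 16993 genes tested in both. Of the 17, 9 also had an unadjusted p of at most 0.01 there, as did 389 of the 16993, counting only genes with the same sign as in WT. Of the genes higher in WT at an unadjusted p of at most 0.01, 317 of 330 (96.1%) had the same sign, and of the lower ones 128 of 155 (82.6%). One CFTR−/− library stood apart, animal 2 at 100 days, with 1.92% of its counts in digestive enzyme genes against 22.1% in animal 1. Without it, the smallest adjusted p was 0.0105. The shares with the same sign, an alternative added after seeing the data, were then 93.4%, 82.1% and, for all genes, 63.0%. Again 17 of 17 had the same sign, and 13 of them were at an unadjusted p of at most 0.01 (1172 of 16993 among all genes, counting only those with the same sign as in WT). Digestive enzyme genes had a median log2 fold change of 2.26 in CFTR−/− animals, also positive.

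The log2 fold changes in CFTR−/− animals were 4.39 (SE 1.196) for PRSS1, 4.28 (SE 1.15) for LOC101112049, 2.03 (SE 0.76) for CLDN18 and 1.36 (SE 0.39) for BCAT2. Each standard error was larger than in WT. The difference of the differences was tested in 16 libraries: 0 of 18445 genes were called by edgeR (568 at an unadjusted p under 0.05, and 1 by the likelihood ratio test), and the smallest adjusted p was 1. The medians of the endocrine lists were -0.19 for the transcription factors, 0.24 for the granule genes and 0.38 for the hormone genes in CFTR−/− animals, where all 3 were negative in WT. PAX4 had a log2 fold change of -0.64 (SE 0.66) in CFTR−/− animals, and the test of the difference did not pass (difference 2.44, SE 0.90, adjusted p = 1). Mitosis genes were lower in all 30 cases in CFTR−/− animals (median -0.57), fibrillar collagen and matrix genes in 32 of 35 (median -0.64), and ribosomal protein genes were higher in all 52 (median 0.56).

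**Figure D4:**
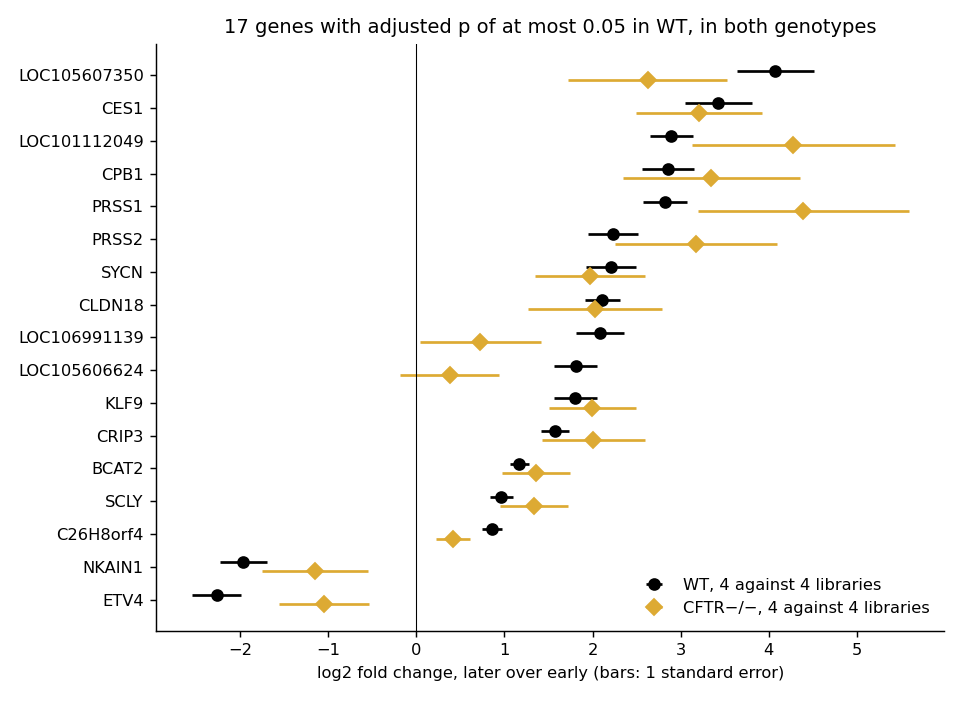
Log2 fold change of later over early (bars are 1 standard error) for the 17 genes with an adjusted p of at most 0.05 in WT, in WT (black circles) and in CFTR−/− fetuses (yellow diamonds), 4 against 4 libraries each. The sign is the same in both genotypes for 17 of 17 genes, and the bars are wider in CFTR−/−.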

How the data were processed

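Bulk RNA sequencing of sheep pancreas tissue gave counts per gene for 20 libraries. Per their deposited processing notes, the authors aligned reads with STAR 2.6 to the Oar_v4.0 assembly and deposited integer counts per gene from featureCounts 1.6.3. The paper states a later STAR version. Analysis began from those counts. The 8 WT libraries of 65, 80, 100 and 120 days were compared as 4 later against 4 early libraries in edgeR 4.0.16 (R 4.3.3) with TMM normalization, filterByExpr (minimum count 10, minimum total 15) and the quasi-likelihood F-test. Ages within a stage count as spread. A gene was called where its p, adjusted by the method of Benjamini and Hochberg, was no higher than 0.01 and its log2 fold change 0.58 or more in size. SE is the absolute log2 fold change over the square root of F. Printed CPM use TMM factors of all 20 libraries, and shares are of raw counts. The same contrast in CFTR−/− libraries and its difference from WT were fitted in the same way.

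Gene lists (digestive enzymes, acinar, endocrine, duct, division, growth, matrix, lipid, immune, blood, nerve, liver, gut, stress and other cell type lists) give counts of members and the median log2 fold change, with no test of the list. Named by rule were called genes, the most abundant member of each list, CFTR and genes the study names from its comparisons between WT ages. Those comparisons set neighbouring ages against each other, unlike the pooled stages here. Other genes that the study names were chosen after their values were seen, such as PRSS2, or are not described here, such as KRT19. The members and lists were chosen with earlier results of these data known. Locus numbers without a symbol (8432 of 24478 gene identifiers) took names from RefSeq (573), from deposited marker sheets (93) or from deposited gene tables whose values matched within 0.001 (108), and 85 of these names are also an identifier of their own. Names from RefSeq come from a newer assembly, and all coordinates are of Oar_v4.0.

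The fits were tested on simulated data with known fold changes: later against early called 139 of 196 changed genes and 0 others, the CFTR−/− contrast 142 of 199 and 2 others, and the difference between genotypes 102 of 198 and 1 other, none with the wrong sign. Every simulated gene was given the same dispersion (spread between libraries), and no library was made to stand apart. These rates therefore check the code and do not describe recovery in the real libraries. Alternatives were DESeq2 1.42.0 size factors and Wald test, upper-quartile scaling, the likelihood ratio test, glmTreat at a fold change of 1.5, other filters, thresholds and designs, removal of the trend with gene length (limma 3.58.1, loess span 0.3), and leaving out libraries or ages. Medians with upper-quartile scaling, and directions without 1 CFTR−/− library, were added after seeing the data. With 4 libraries against 4, an exact permutation test could not go below a p of 0.0286. Principal components used log2 CPM with a prior count of 2.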

Additional observations from a re-analysis of the deposited data

Results flagged for a closer look

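Of 330 groups of 4 libraries examined (named genes and summed lists, each stage apart), 35 values stood far from the other 3 of their stage by Dixon's gap ratio. Chance gives about 1 in 20 groups. Animal 2 at 120 days held 19 of the 35. In that library the genes were ERBB3 (52.8 CPM), LTB (95.1), C1QB (102), B2M (380.5), HBA1 (3404), S100A12 (48.0), ADIPOQ (175), MYH11 (65.3), FABP4 (136), HBB (616) and GAREM2 (1.23). The summed lists there were progenitor transcription factors (406 CPM), lymphatic endothelium (211), neurons (413), adipocytes (668), lymphocytes (433.5), macrophages and neutrophils (619), antigen presentation and interferon (1519) and erythroid genes (4274). Adipocyte, lymphocyte, red cell, nerve and smooth muscle transcripts were high in it together, while ERBB3 and the progenitor transcription factors were low. The paper also calls this library an outlier, and proposes minor differences in cell content or RNA integrity. From abundant ADIPOQ in 1 WT animal of this age it proposes that fat tissue was included. Whether adjoining tissue was taken with the pancreas, the pancreas of that fetus differed, or RNA integrity played a part cannot be told apart with 1 library.

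The other values apart from their stage are given without a reason. At 65 days MT2A (225 CPM) and the summed glucocorticoid response list (500.8) were high in animal 1, and MEST (325) and the summed complement list (447) in animal 2. At 80 days PLVAP (94.1) was high and S100B (13.4) low in animal 1, and in animal 2 ATP5A1 (389) and CPA1 (7135) were low and CREB3L3 (17.9) high. At 100 days AMBP (1636), CREB3L3 (22.0), GIP (4.28) and SSR3 (413) were high in animal 1, and the summed mesothelium list (14.97) in animal 2. At 120 days SREBF2 (216.5) and CEL (16220) were high in animal 1.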

How the results depend on the processing

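Of 3451 pairs of a gene and an alternative (128 genes), 3123 kept direction and side of the threshold, 71 fell short of it, 211 passed it and 46 turned direction. Of 152 pairs of a list and an alternative, 135 stayed, 5 moved and 12 turned. The number of called genes was 4, and the same 4 were called with DESeq2 size factors. Day as a linear term called 4 other genes, 2 higher and 2 lower, and none of the first 4. The number was 0 with upper-quartile scaling, with glmTreat, with 4 ages as groups, with counts summed per age, and without 65, 80 or 100 days. It was 2 with the filter by age, both among the 4, and 2 with 4 ages and the term libraries, neither among them. It was 6 without the length trend, 6 without 120 days (3 of the 4 kept) and 8 with no filter. It was 17 at an adjusted p of 0.05, 137 with the likelihood ratio test, 293 with the Wald test and 488 at an unadjusted p of 0.01. Leaving out 1 library gave 0 to 3. With the replicate number as a block it was 0; the numbers do not pair the samples (correlations 0.032, 0.075, 0.263, -0.04, -0.44 and -0.457). The likelihood ratio test gave 47 in CFTR−/− animals and 1 for the difference between genotypes.

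Leaving out 1 library turned the log2 fold change of some genes, given as the lowest and highest of the 8 fits: SOX9 -0.16 to 0.17, COL4A1 -0.03 to 0.31, PROX1 -0.053 to 0.22, LTB -3.03 to 3.22, C1QB -0.071 to 1.63, B2M -0.19 to 0.98, HBA1 LOC101108797 -0.24 to 1.49, HSP90B1 -0.068 to 0.28, MYC -0.20 to 0.31, ATP5A1 -0.20 to 0.084, DDX3X -0.07 to 0.12, S100A12 LOC101103771 -2.45 to 4.01, PDGFC -0.20 to 0.075 and CREB3L3 -0.036 to 0.85. Without 65 days the values that turned were COL3A1 0.15, ALDH1A2 0.048, MYC -0.22, PDGFC 0.002 and CREB3L3 -0.037. Without 80 days it was HSP90B1 -0.029. Without 100 days the values that turned were COL3A1 0.071, HSP90B1 -0.22, MYC -0.30, PDGFC 0.04, HSPA5 -0.079 and CREB3L3 -0.15. Without 120 days the values that turned were SOX9 0.19, COL4A1 -0.23, LTB -3.31, B2M -0.12, HBA1 LOC101108797 -0.21, ATP5A1 0.064, DDX3X -0.059 and S100A12 LOC101103771 -3.56. With day as a linear term the values that turned were HSP90B1 -0.08 and PDGFC 0.015. Without the length trend the values that turned were ATP5A1 0.007 and PDGFC 0.03. With 4 ages as groups it was LTB -0.063. With the term libraries added it was LTB -0.074. List medians that turned without animal 2 at 120 days were progenitor and epithelial transcription factor 0.094, basement membrane -0.018, endothelium -0.012, lymphatic endothelium -0.45, Schwann and glia -0.12, B and T lymphocyte -1.57, macrophage and neutrophil -0.53, complement and acute phase -0.039, erythroid -0.22, immediate early -0.058 and cell type markers -0.18, and without the length trend oxidative phosphorylation 0.001. The cause of these turns was not tested.

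With 2 animals per age, effects of age within a stage, litter and sex were not tested. Values well below 1 CPM rest on few reads, since 1 count was worth 0.0122 to 0.0213 CPM. Assignment of reads among near-identical gene copies was not tested.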
